A study of Homo sapiens with 8 samples.

Results

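The forkhead (FOX) genes encode transcription factors that share a winged-helix DNA-binding domain. They were taken by symbol, FOX followed by a subfamily letter and any number or copy suffix, leaving out antisense genes and look-alike symbols, which gave 48 genes of 19126 autosomal protein-coding genes in a RefSeq table of GRCh38.p14. In the authors' lists of DNA regions, 507 of 327994 regions named at least 1 of these 48 genes. The rule uses the symbol and no measured value, although the family was picked with earlier results of these data known.

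As background, the subfamilies cover much of development. FOXA factors open chromatin in endoderm and liver, FOXF and FOXL1 act in gut and lung mesenchyme, FOXC factors in vessels and eye, and FOXJ1 in ciliated cells. FOXD3 and FOXH1 act in pluripotent cells and the early embryo, FOXO factors are held out of the nucleus by insulin signalling through AKT, FOXM1 drives genes of mitosis, and FOXN1 is needed for the thymic epithelium.

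The experiment asked which DNA fragments stretches of the long noncoding RNAs MEG3 and GATA6-AS could hold, and it used RNA oligos for 3 stretches, called MEG3 TFR1 and MEG3 TFR2 in MEG3 and GATA6-AS TFR1 in GATA6-AS. Each was biotinylated and mixed at 20 pmol, for 1 h at 37 °C, with 6 to 7 µg of genomic DNA of H1, an established human embryonic stem cell line, or the oligo was left out (no oligo). Every group had 2 libraries from separate experiments, 8 libraries in 4 groups. All groups used the same kind of DNA, freed of RNA and sonicated to 200 to 300 bp, so no chromatin was present, no expression was measured, and cell markers could not be checked.

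For each oligo the authors deposited a captured list, holding regions enriched by the oligo, and a control list, holding regions with the higher signal in the no-oligo libraries, 6 lists in all. Each region has a single log2 ratio of oligo over no oligo and no value per library, so a ratio has no SD, no p-value and no known depth, and no difference below was tested. The captured list of MEG3 TFR1 held 89739 regions, that of MEG3 TFR2 73546 and that of GATA6-AS TFR1 104786, and the control lists held 12649, 10944 and 36330. The 3 oligos share the same no-oligo libraries, so their values are set side by side and are not independent of each other.

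Start-site sequences are shown first for 5 genes, since captured DNA there lies over or just before a gene's start, which follows base 250 of each window. RefSeq (GRCh38.p14) gave a window of 250 bases before to 50 after a start for 37 FOX genes. Genes without a window include FOXA2, FOXC2, FOXE3, FOXF1, FOXH1, FOXJ1, FOXL1, FOXM1, FOXN2 and FOXS1. A captured region overlapped the window of 3 of the 37 genes with MEG3 TFR1 (8.73% of all genes with a window), of 0 with MEG3 TFR2 (4.11%) and of 6 with GATA6-AS TFR1 (20.5%). No control region overlapped a FOX window, against 0.252%, 0.272% and 0.709% of all genes in the same oligo order. The 8 genes were FOXB2, FOXD3, FOXF2, FOXI1, FOXL2, FOXN1, FOXO3B and FOXP4. Each sequence below runs 5′ to 3′ on the plus strand, with the longest run made only of purines (A, G) or only of pyrimidines (C, T) in capitals, since triplexes form on such runs.
FOXN1: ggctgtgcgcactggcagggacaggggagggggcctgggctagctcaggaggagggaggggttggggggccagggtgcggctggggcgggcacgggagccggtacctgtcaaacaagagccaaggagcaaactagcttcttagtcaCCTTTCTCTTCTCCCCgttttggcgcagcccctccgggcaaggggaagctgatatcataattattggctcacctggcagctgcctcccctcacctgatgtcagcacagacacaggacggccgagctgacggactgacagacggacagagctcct
FOXB2: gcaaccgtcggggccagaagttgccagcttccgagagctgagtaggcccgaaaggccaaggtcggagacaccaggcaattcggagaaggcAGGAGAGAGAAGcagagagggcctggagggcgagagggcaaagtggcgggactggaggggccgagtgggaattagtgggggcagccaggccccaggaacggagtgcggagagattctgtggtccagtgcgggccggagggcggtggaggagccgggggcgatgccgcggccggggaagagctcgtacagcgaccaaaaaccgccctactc
FOXD3: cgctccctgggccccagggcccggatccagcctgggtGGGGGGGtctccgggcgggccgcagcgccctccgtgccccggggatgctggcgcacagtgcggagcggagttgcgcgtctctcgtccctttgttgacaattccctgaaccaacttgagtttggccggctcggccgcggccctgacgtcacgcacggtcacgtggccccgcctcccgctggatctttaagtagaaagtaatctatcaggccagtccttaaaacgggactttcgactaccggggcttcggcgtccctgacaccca
FOXF2: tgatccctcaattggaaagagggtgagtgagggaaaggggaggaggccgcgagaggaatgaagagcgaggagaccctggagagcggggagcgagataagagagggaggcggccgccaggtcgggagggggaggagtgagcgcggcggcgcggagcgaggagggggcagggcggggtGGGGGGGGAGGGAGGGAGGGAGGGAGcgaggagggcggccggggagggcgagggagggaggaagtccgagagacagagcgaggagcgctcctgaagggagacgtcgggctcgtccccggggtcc
FOXP4: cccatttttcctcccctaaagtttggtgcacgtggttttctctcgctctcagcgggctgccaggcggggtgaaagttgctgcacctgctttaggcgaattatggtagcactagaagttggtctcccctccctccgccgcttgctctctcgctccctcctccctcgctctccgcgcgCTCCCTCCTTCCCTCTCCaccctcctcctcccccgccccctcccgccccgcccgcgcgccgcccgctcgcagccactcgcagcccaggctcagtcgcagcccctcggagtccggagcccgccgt

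FOXN1, at chr17:28506098-28506397, was covered over all 300 bases by a GATA6-AS TFR1 region of log2 ratio 1.42, which takes in its pyrimidine run of 16 bases. FOXB2, at chr9:77019405-77019704, encodes a little-studied forkhead factor and was the only one of the 8 windows captured with more than 1 oligo. A MEG3 TFR1 region of log2 ratio 1.41 covered all 300 bases of it, and a GATA6-AS TFR1 region of 1.10 covered bases 97 to 300, which hold 6 of the 12 bases of its purine run. FOXD3, the factor of pluripotent cells and neural crest, lies at chr1:63322317-63322616. Its GATA6-AS TFR1 region, 3.47-fold higher than with no oligo (log2 ratio 1.79), covered bases 1 to 184 and a run of only 7 bases.

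FOXF2, at chr6:1389326-1389625, has the longest run among the captured FOX windows, 26 purines at bases 177 to 202. Its GATA6-AS TFR1 region (log2 ratio 1.42) covered bases 1 to 125 and so none of that run. FOXP4, at chr6:41546131-41546430, has a run of 18 pyrimidines at bases 177 to 194, also outside the captured bases 1 to 170 (GATA6-AS TFR1, log2 ratio 1.33). In these windows, then, a captured region did not always take in the longest run, although sheared fragments of 200 to 300 bp can reach past the called bases. Shorter runs do lie in the captured bases of both windows, as gagggaaaggggaggagg in FOXF2 and tctcccctccctcc in FOXP4.

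The remaining 3 windows were those of FOXI1, FOXL2 and FOXO3B. FOXI1, a factor of the inner ear, had bases 1 to 154 captured with MEG3 TFR1 (1.27 on the log2 scale). FOXL2, the ovarian forkhead factor, had all 300 bases captured with GATA6-AS TFR1 (1.21), and FOXO3B, a near copy of FOXO3, all 300 with MEG3 TFR1 (1.14). A pair of short purine motifs were searched on both strands of every window, of which the 37 genes have 48 because some have several starts. GAGAGA was in 5 of the 8 captured FOX windows (62.5%), in 6 of 40 other FOX windows, in 26.8% of 4805 captured windows of all genes and in 21.4% of all 21156 windows. In FOXF2 it lies outside the captured bases, so 4 of the 8 hold it in captured DNA. GGAGGA was in 4 of the 8 (50.0%), in 19 of the 40, in 48.1% and in 39.7%. With 8 windows these shares are descriptions, and a match is not a binding site.

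Across whole genes, FOX loci were mostly found in captured lists and less often in control lists, as were genes in general. A captured region lay inside or within 5 kb of 34 of the 48 FOX genes with MEG3 TFR1, where 74.0% of all autosomal protein-coding genes had one. With MEG3 TFR2 it was 30 genes, against 70.7% of all genes, and with GATA6-AS TFR1 41 genes, against 79.4% of all genes. As shares of the 48 these were 70.8%, 62.5% and 85.4%. Control regions lay that near to 9 FOX genes with MEG3 TFR1 (25.9% of all genes), 9 with MEG3 TFR2 (24.1%) and 19 with GATA6-AS TFR1 (49.0%), or 18.8%, 18.8% and 39.6% of the 48. FOX shares were thus within 10 percentage points of those of all genes in every list.

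FOX genes are short, and shorter genes meet fewer regions. Their median length was 4.69 kb, against 24.5 kb for all genes, and 32 of the 48 are under 10 kb. Among genes under 10 kb, captured regions lay within 5 kb of 62.5% of FOX genes and 59.5% of all genes with MEG3 TFR1, of 53.1% and 53.2% with MEG3 TFR2, and of 78.1% and 67.6% with GATA6-AS TFR1. With the MEG3 oligos these shares lie near those of all short genes. With GATA6-AS TFR1 the FOX share was higher, a gap that rests on 32 short FOX genes and was not tested. Per 10 kb of the gene and its flanks, the median FOX gene had 0.716, 0.370 and 0.814 captured regions with MEG3 TFR1 and TFR2 and with GATA6-AS TFR1, where the median of all genes was 0.409, 0.310 and 0.514. The number of FOX genes above the all-gene median was 27, 24 and 35 of 48 in that oligo order, where 50.0% of all genes are above it. Ranks per 10 kb given below are among genes of all lengths. For a gene under 10 kb the flanks make up most of the span, so a few flanking regions can give a high rank.

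**Figure D1:**
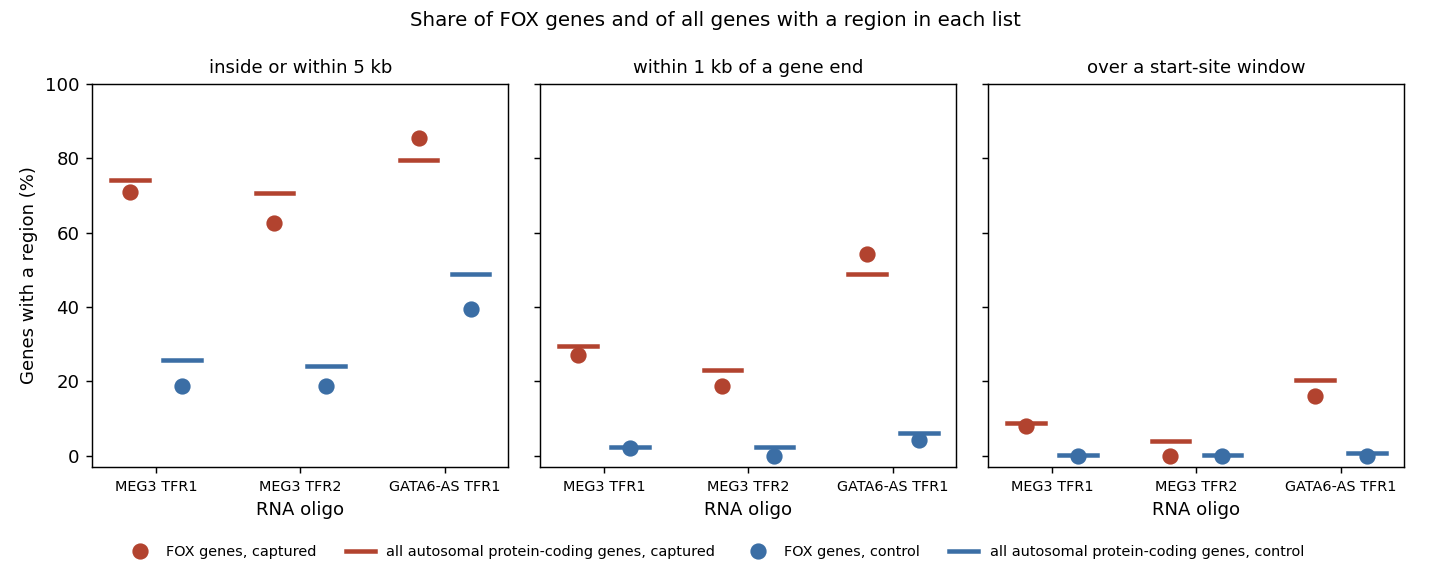
Percent of FOX genes (points) and of all autosomal protein-coding genes (bars) with a captured region (red) or a control region (blue), for each oligo, by 3 rules of position: inside or within 5 kb of the gene, within 1 kb of either gene end, and over the start-site window. FOX points lie close to the bars, and the highest, 85.4%, is GATA6-AS TFR1 within 5 kb.

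At gene ends, captured regions were likewise far more common than control regions. Within 1 kb of either end, captured regions were found at 13 FOX genes with MEG3 TFR1 (29.4% of all genes), 9 with MEG3 TFR2 (23.2%) and 26 with GATA6-AS TFR1 (48.8%), or 27.1%, 18.8% and 54.2% of the 48. Control regions were found there at 1 FOX gene with MEG3 TFR1 (2.44% of all genes), 0 with MEG3 TFR2 (2.32%) and 2 with GATA6-AS TFR1 (6.18%). These were FOXD2, at which both MEG3 TFR1 and GATA6-AS TFR1 had a control region, and FOXL2, with GATA6-AS TFR1. Pooled over the oligos, a captured region lay at an end of 32 FOX genes. No share of all genes was counted for the pooled lists, so this count cannot be set against the single-oligo shares. Among genes under 10 kb, captured regions lay at an end of 25.0% of FOX genes and 33.3% of all genes with MEG3 TFR1, of 18.8% and 27.7% with MEG3 TFR2, and of 53.1% and 52.2% with GATA6-AS TFR1. These gaps are of few genes among 32 and were not tested.

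The gene names that the authors gave their regions do not follow position closely. Some names carry a (+) or (-) mark, as does FOXA2(+) on a MEG3 TFR2 captured region 77.0 kb from FOXA2. Marked and unmarked names were counted alike. By these names, the captured lists held 38 FOX genes with MEG3 TFR1 (73.5% of all genes), 35 with MEG3 TFR2 (71.0%) and 42 with GATA6-AS TFR1 (75.6%). The control lists named 14 (27.2%), 13 (25.0%) and 27 (51.3%). Of 509 pairs of a region and a FOX name, 289 (56.8%) had the region touching the gene, 174 had it over 5 kb away and 76 over 50 kb away. FOXN1 shows the reverse case, since all 25 of its captured regions carry the name RP11-192H23.4 and none carries FOXN1. FOXN1 was thus named in no list, like FOXD4L3, FOXD4L4, FOXD4L5, FOXL3 and FOXO3B, although FOXL3, FOXN1 and FOXO3B had captured regions by position. At least 1 list named 42 of the 48 FOX genes and 16136 of all 19126 genes, so genes without a name are common. Counts per gene below are therefore of regions inside or within 5 kb of the gene.

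**Figure D2:**
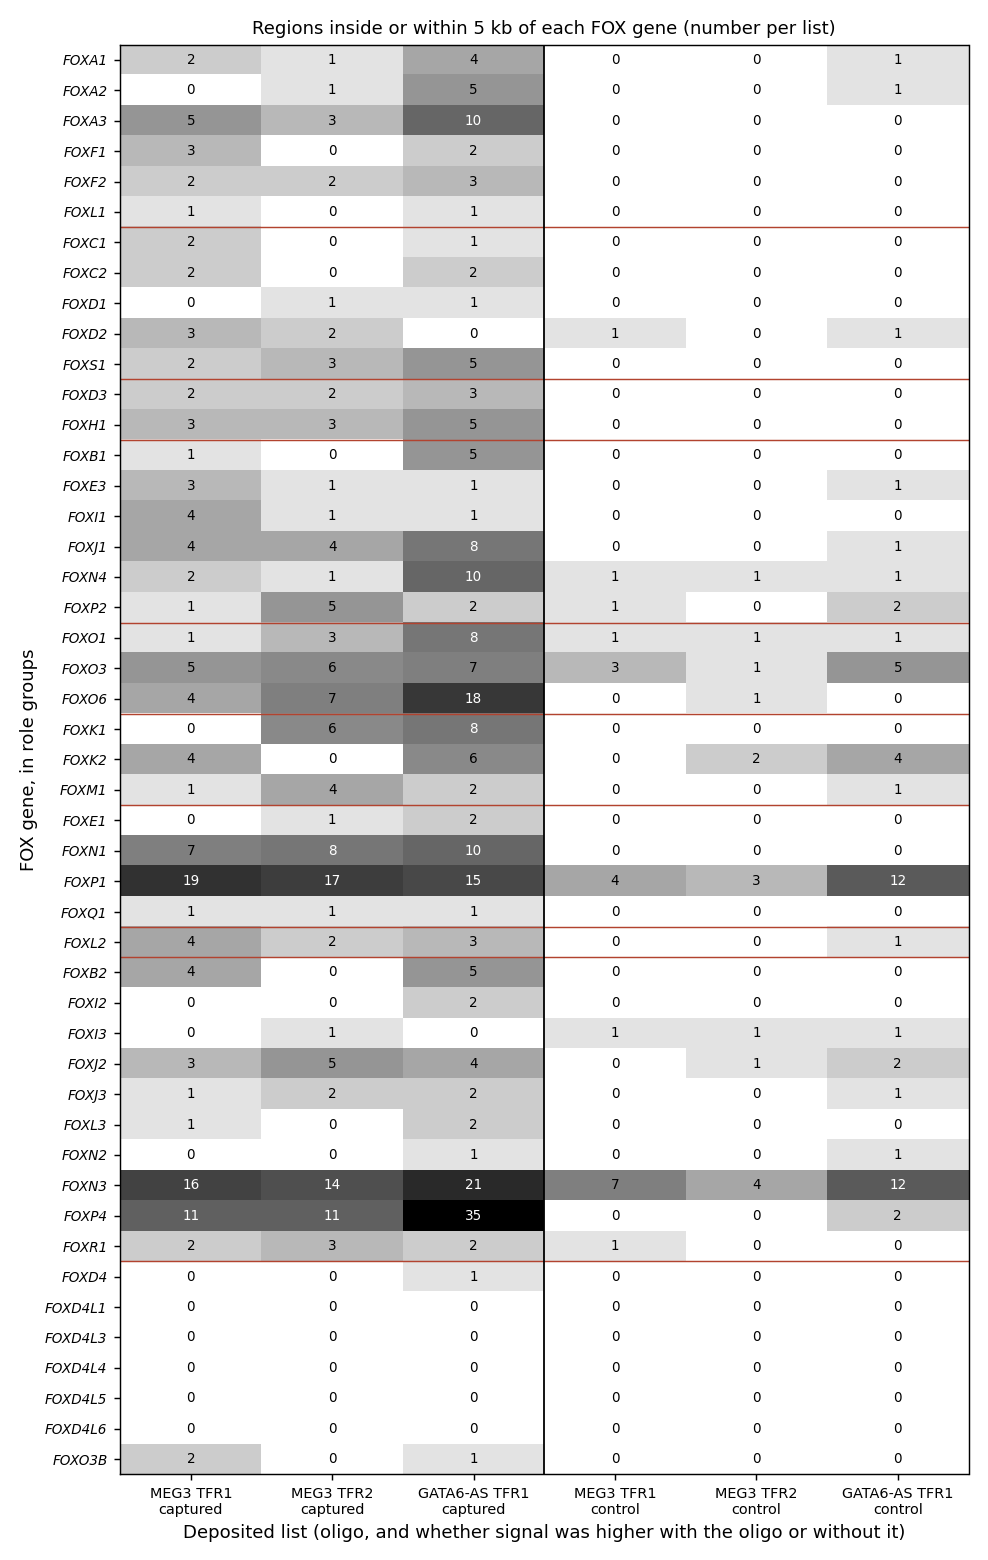
Number of regions inside or within 5 kb of each FOX gene described here (rows, grouped by role with red lines between groups) in the captured lists (left 3 columns) and control lists (right 3 columns) of the 3 oligos, darker for more. FOXP4 with GATA6-AS TFR1 has the highest count, 35, and the control columns are mostly empty.

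Captured regions near FOX genes had ratios much like those of their lists. Their median log2 ratio was 1.44 with MEG3 TFR1, 1.44 with MEG3 TFR2 and 1.38 with GATA6-AS TFR1, where all captured regions had medians of 1.41, 1.44 and 1.34. Regions that carry a FOX name had 1.33, 1.44 and 1.40, so with MEG3 TFR1 the FOX median lies above or below that of the list by the choice of rule. Ratios of the captured regions inside or within 5 kb of a FOX gene ran between 0.59 and 3.77, 0.84 and 3.50, and 0.71 and 3.40 in the same oligo order. Control regions near FOX genes had medians of -1.42, -1.25 and -1.75, where all control regions had -1.53, -1.46 and -1.57.

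The balance of captured to control regions near FOX genes was 127 to 20 with MEG3 TFR1 (6.35 to 1), 121 to 15 with MEG3 TFR2 (8.07 to 1) and 226 to 51 with GATA6-AS TFR1 (4.43 to 1). Over all regions it was 7.09, 6.72 and 2.88 to 1. By the authors' names it was 106 to 26 (4.08 to 1), 114 to 16 (7.13 to 1) and 188 to 57 (3.30 to 1). These balances rest on few control regions and have no known error, and the MEG3 TFR1 one moves by over 1.5 times with the rule.

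**Figure D3:**
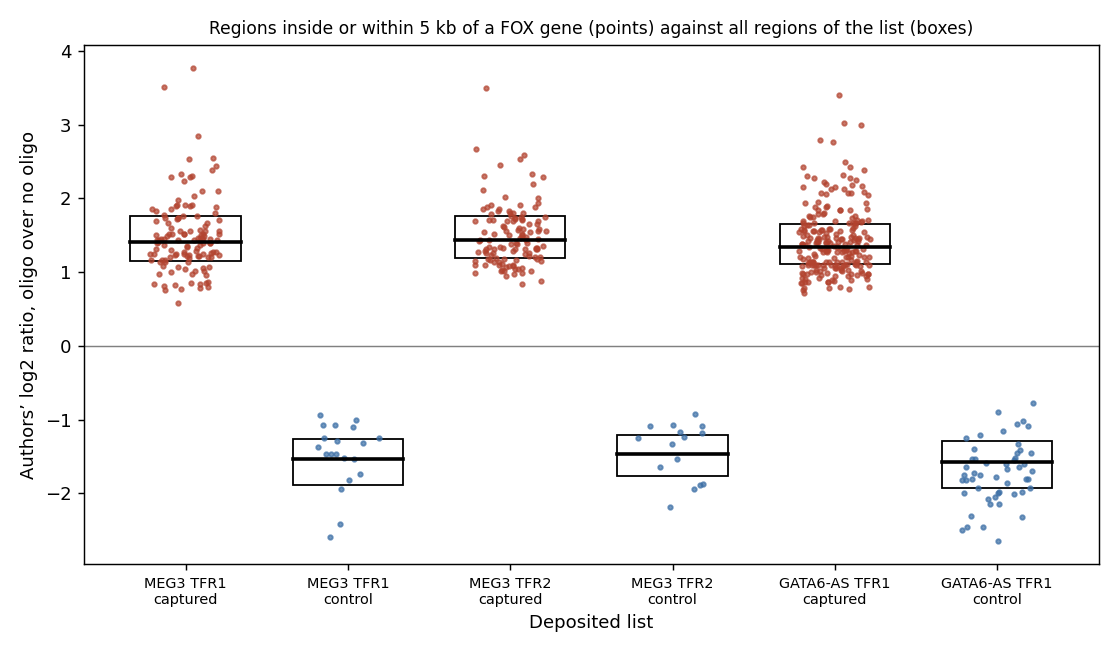
Log2 ratio of oligo over no oligo of each region inside or within 5 kb of a FOX gene (points), by oligo and list, with the quartiles of all regions of that list as boxes and the median as a thick line. FOX points lie around and beyond the boxes on both sides and reach 3.77 in the captured lists.

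The role groups are small, and their counts are by the 5 kb rule. By it, 74.0%, 70.7% and 79.4% of all genes were captured with MEG3 TFR1 and TFR2 and GATA6-AS TFR1. Control regions lay that near to 25.9%, 24.1% and 49.0% of all genes in that order. Of the endoderm and gut genes FOXA1, FOXA2, FOXA3, FOXF1, FOXF2 and FOXL1, 5 had a captured region with MEG3 TFR1, 4 with MEG3 TFR2 and 6 with GATA6-AS TFR1, and 2 had a control region, both with GATA6-AS TFR1. FOXA3, a liver factor of 9.47 kb on chromosome 19, led the group with 5 captured regions with MEG3 TFR1, 3 with MEG3 TFR2 and 10 with GATA6-AS TFR1 and no control region. Its GATA6-AS TFR1 regions covered 32.3% of the gene with its 5 kb flanks, and its highest log2 ratios were 2.33 with MEG3 TFR1, 1.23 with MEG3 TFR2 and 2.19 with GATA6-AS TFR1. Per 10 kb, FOXA3 stood above 97.4% of all genes in the GATA6-AS TFR1 captured list.

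FOXA2, the endoderm and floor plate factor, had 0 captured regions with MEG3 TFR1, 1 with MEG3 TFR2 (1.86) and 5 with GATA6-AS TFR1 (median 1.47), and 1 control region with GATA6-AS TFR1 (-1.55). FOXA1, which opens chromatin for hormone receptors, had 2, 1 and 4 captured regions in that oligo order, the highest at 2.25 with GATA6-AS TFR1, and 1 GATA6-AS TFR1 control region (-1.92). FOXF2, a mesenchymal target of Hedgehog signalling like FOXF1, had captured regions with all 3 oligos (2, 2 and 3) and no control region. FOXF1 had 3 with MEG3 TFR1, the highest at 2.30, 0 with MEG3 TFR2 and 2 with GATA6-AS TFR1. FOXL1 had 1 with MEG3 TFR1 (2.11), 0 with MEG3 TFR2 and 1 with GATA6-AS TFR1 (1.03).

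FOX genes lie in clusters, so neighbours can share a region. On chromosome 16, the 83.0 kb that hold FOXF1, FOXC2 and FOXL1 had 5 captured regions with MEG3 TFR1, 4 with MEG3 TFR2 and 6 with GATA6-AS TFR1, and 0 control regions with any of them. Just 1 captured region in each of those lists named any of the 3 genes. A MEG3 TFR1 region of log2 ratio 2.11, at chr16:86573351-86573600, carries the names of both FOXC2, a factor of lymphatic vessels, and FOXL1. FOXC2 had 2 captured regions with MEG3 TFR1, 0 with MEG3 TFR2 and 2 with GATA6-AS TFR1.

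On chromosome 6, the 311.8 kb from FOXQ1 through FOXF2 to FOXC1 held 19 captured regions with MEG3 TFR1, 11 with MEG3 TFR2 and 22 with GATA6-AS TFR1, and 0, 3 and 3 control regions in that order. FOXC1, a factor of the eye and vessels, had 2 captured regions with MEG3 TFR1, the higher at 0.97, 0 with MEG3 TFR2 and 1 with GATA6-AS TFR1 (1.58). FOXQ1, an epithelial factor, had 1 with each oligo, with log2 ratios of 1.40, 1.79 and 1.30. On chromosome 1, the 34.4 kb of FOXE3 and FOXD2 were uneven, with 9, 5 and 1 captured regions and 1, 0 and 2 control regions. It was the only one of these 3 clusters with more control than captured regions for any oligo, GATA6-AS TFR1.

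FOXD2, expressed in kidney and facial mesenchyme, had 3 captured regions with MEG3 TFR1, 2 with MEG3 TFR2 and 0 with GATA6-AS TFR1, and 1 control region each with MEG3 TFR1 (-1.29) and GATA6-AS TFR1 (-1.08). FOXE3, the lens factor, had 3, 1 and 1 captured regions, the highest at 1.85 with MEG3 TFR1, and 1 GATA6-AS TFR1 control region (-1.69). That region of 1.85, at chr1:47415901-47416050, is named FOXD2 by the authors and lies 235 bp from FOXE3. FOXD1, of the kidney stroma, had 1 captured region with MEG3 TFR2 (2.11) and 1 with GATA6-AS TFR1 (1.86). FOXS1, of pericytes and neural crest, had 2, 3 and 5 captured regions and no control region, with highest log2 ratios of 2.23, 2.19 and 1.57. With MEG3 TFR2, FOXS1 stood above 97.7% of genes per 10 kb, by 3 regions that all lay in its flanks, over 1 kb from its ends.

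The early-embryo group, as counted here, is FOXD3 and FOXH1. Both had captured regions inside or within 5 kb with all 3 oligos and had no control region. Control regions lay near 25.9%, 24.1% and 49.0% of all genes in the oligo order used above. With 2 genes, this absence was not tested and depends on the grouping. FOXO1 and FOXO3, counted under insulin signalling below, had control regions with every oligo (1, 1 and 1, and 3, 1 and 5). FOXD3 had 2 regions with MEG3 TFR1, the higher at 2.29, 2 with MEG3 TFR2 (1.56) and 3 with GATA6-AS TFR1 (1.79), all of them outside the gene itself. FOXH1, the partner of SMAD2 in Nodal signalling, had 3, 3 and 5 regions with highest log2 ratios of 1.83, 1.88 and 1.58. Those with MEG3 TFR1 all lay in its flanks, over 1 kb from its ends. GATA6-AS TFR1 regions covered 33.7% of FOXH1 and its flanks.

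All 7 genes of the nervous system, eye, ear and cilia were captured with GATA6-AS TFR1, where MEG3 TFR1 captured 6 and MEG3 TFR2 5, against 79.4%, 74.0% and 70.7% of all genes. FOXJ1, which switches on the genes of motile cilia, is 4.91 kb long and had 4, 4 and 8 captured regions with MEG3 TFR1 and TFR2 and GATA6-AS TFR1. They covered 12.5%, 17.8% and 52.3% of FOXJ1 with its flanks, and the highest log2 ratio was 2.79 (6.90-fold) with GATA6-AS TFR1. A single GATA6-AS TFR1 control region lay near it (-2.14). FOXJ1 stood above 97.8% of genes per 10 kb with MEG3 TFR2 and above 97.9% with GATA6-AS TFR1.

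FOXN4, of retinal progenitors, had 2, 1 and 10 captured regions, with medians of 1.26, 1.33 and 1.26. FOXB1, of the hypothalamus, had 1 captured region with MEG3 TFR1 (1.45), 0 with MEG3 TFR2 and 5 with GATA6-AS TFR1, the highest at 2.17. These genes had more regions with GATA6-AS TFR1, which also had the longest captured list. FOXI1 ran the other way, with 4 captured regions with MEG3 TFR1, the highest at 1.74, 1 with MEG3 TFR2 and 1 with GATA6-AS TFR1. FOXP2, known from inherited speech disorder, is a long gene with 1, 5 and 2 captured regions and highest log2 ratios of 1.81, 2.53 and 2.28. FOXP2 also had control regions, 1 with MEG3 TFR1 (-2.58), 0 with MEG3 TFR2 and 2 with GATA6-AS TFR1 (-2.32 and -2.05).

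The insulin signalling genes FOXO1, FOXO3 and FOXO6 were captured with every oligo, and FOXO6 was the densest of them. FOXO3B is counted with the near-identical copies below. FOXO6, expressed in brain and, in mice, a regulator of glucose output in liver, is 22.2 kb long on chromosome 1. It had 4 captured regions with MEG3 TFR1, 7 with MEG3 TFR2 and 18 with GATA6-AS TFR1, and 1 control region with MEG3 TFR2 (-1.19). Captured log2 ratios of FOXO6 had a lowest, median and highest value of 0.85, 1.21 and 2.84 with MEG3 TFR1, of 1.08, 1.47 and 3.50 with MEG3 TFR2, and of 0.78, 1.36 and 2.43 with GATA6-AS TFR1. Its regions covered 25.2% of the gene and flanks with GATA6-AS TFR1, against 5.75% with MEG3 TFR1 and 7.00% with MEG3 TFR2, and per 10 kb it stood above 98.3% of genes with GATA6-AS TFR1.

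The highest FOXO6 region, 11.3-fold higher with MEG3 TFR2 than with no oligo, lies at chr1:41358801-41359050, 2.38 kb before the gene. It does not carry the name FOXO6. FOXO1, the main insulin-regulated FOXO in liver, had 1, 3 and 8 captured regions, with highest log2 ratios of 1.21, 2.31 and 2.08, and 1 control region with each oligo (-1.38, -1.07 and -2.45). FOXO3, linked to stress resistance, had 5, 6 and 7 captured and 3, 1 and 5 control regions. It had the most control regions of any FOX gene but FOXN3 and FOXP1, which are far longer.

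Of the cell cycle and metabolism genes, FOXM1, FOXK1 and FOXK2 were all captured with GATA6-AS TFR1, and 2 of them with each MEG3 oligo. FOXK1, a repressor of autophagy genes, had 0 captured regions with MEG3 TFR1, 6 with MEG3 TFR2 (median 1.55) and 8 with GATA6-AS TFR1 (median 1.57, highest 3.02), and no control region. FOXK2, its close relative, was uneven in another way, with 4 captured regions with MEG3 TFR1 (highest 2.56), 0 with MEG3 TFR2 and 6 with GATA6-AS TFR1 (highest 2.76). It had 0, 2 and 4 control regions, so with MEG3 TFR2 it had control regions alone (-1.94 and -0.92). FOXM1 had 1, 4 and 2 captured regions, the highest at 1.69 with GATA6-AS TFR1, and 1 GATA6-AS TFR1 control region (-1.72).

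FOXN1, whose loss leaves mice and people without a thymus, was captured along its length with all 3 oligos. It is 32.6 kb long on chromosome 17 and had 7, 8 and 10 captured regions with MEG3 TFR1 and TFR2 and GATA6-AS TFR1 and no control region. Their lowest, median and highest log2 ratios were 0.59, 1.55 and 2.38 with MEG3 TFR1, 0.84, 1.45 and 1.80 with MEG3 TFR2, and 0.85, 1.20 and 2.27 with GATA6-AS TFR1. FOXP1, of lymphocytes, heart and brain, is 629 kb long and had 19, 17 and 15 captured and 4, 3 and 12 control regions. FOXE1, the thyroid forkhead factor, had 0, 1 and 2 captured regions, the highest at 1.55 with GATA6-AS TFR1.

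**Figure D4:**
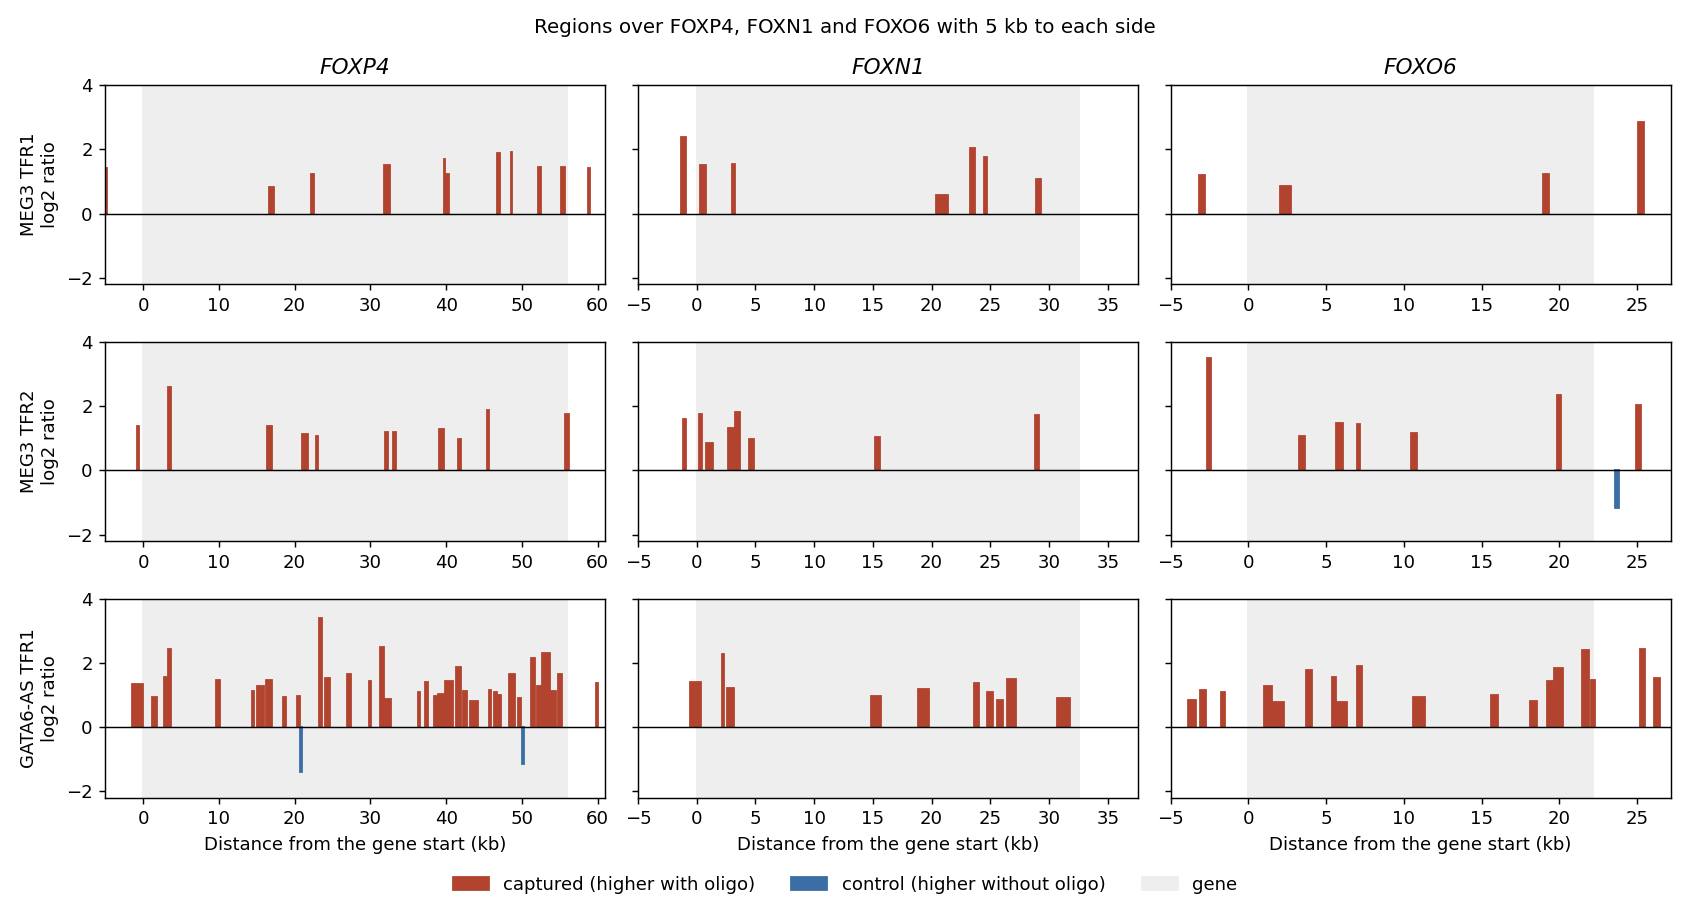
Captured and control regions along FOXP4, FOXN1 and FOXO6 (columns) for the 3 oligos (rows): distance from the gene's start in kb against log2 ratio of oligo over no oligo, with the gene in grey. GATA6-AS TFR1 regions fill more of FOXP4 and FOXO6 than the MEG3 regions do, and FOXN1 has no region below 0.

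FOXP4, which acts with FOXP1 and FOXP2 in lung and gut, had the most captured regions of any FOX gene in 1 list. It is 56.0 kb long on chromosome 6 and had 11 captured regions with MEG3 TFR1, 11 with MEG3 TFR2 and 35 with GATA6-AS TFR1, and 0, 0 and 2 control regions. Lowest, median and highest log2 ratios of the FOXP4 captured regions were 0.83, 1.43 and 1.90 with MEG3 TFR1, 0.99, 1.28 and 2.58 with MEG3 TFR2, and 0.80, 1.33 and 3.40 with GATA6-AS TFR1. The 3 lists thus differed in number more than in median ratio. Captured regions covered 31.1% of FOXP4 and its flanks with GATA6-AS TFR1, against 6.92% and 7.88% with MEG3 TFR1 and MEG3 TFR2, and it stood above 97.8% of genes per 10 kb with GATA6-AS TFR1.

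The region of 3.40, 10.6-fold higher with GATA6-AS TFR1 than with no oligo, lies inside FOXP4 at chr6:41569551-41569950. A control region of FOXP4 with GATA6-AS TFR1, chr6:41567101-41567400 (-1.41), begins at the base after a captured region of the same oligo, chr6:41566751-41567100 (0.98). Opposite ratios thus occur in directly adjoining DNA.

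FOXN3, a repressor of cell cycle genes, is 463 kb long on chromosome 14 and held the highest ratio of any region near a FOX gene. It had 16, 14 and 21 captured regions with medians of 1.48, 1.47 and 1.32, and 7, 4 and 12 control regions with medians of -1.11, -1.25 and -1.64. Its highest region, chr14:89413651-89413800, was 13.6-fold higher with MEG3 TFR1 than with no oligo (log2 ratio 3.77). These many regions still covered just 1.31%, 1.11% and 1.67% of the gene with its flanks, far less than at FOXP4 or FOXJ1.

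Among the other genes, FOXL2 and FOXB2 had many MEG3 TFR1 regions per 10 kb of the gene and its flanks. The 4 at FOXL2 all lay in its flanks, over 1 kb from its ends. FOXL2 had 4, 2 and 3 captured regions, the highest at 1.98 with MEG3 TFR1, and 1 GATA6-AS TFR1 control region (-1.81), and with MEG3 TFR1 it stood above 97.7% of genes per 10 kb. FOXB2 had 4, 0 and 5 captured regions, with medians of 1.38 and 1.10 for MEG3 TFR1 and GATA6-AS TFR1, and stood above 98.7% of genes with MEG3 TFR1. FOXI3, of teeth and other ectodermal organs, had just 1 captured region, with MEG3 TFR2 (1.69), and 1 control region with each oligo. FOXR1 had 2, 3 and 2 captured regions, the highest at 1.38 with MEG3 TFR2, and 1 MEG3 TFR1 control region (-1.07).

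FOXJ2 had 3, 5 and 4 captured and 0, 1 and 2 control regions. Its relative FOXJ3 had 1, 2 and 2 captured regions, the highest at 2.23 with GATA6-AS TFR1, and 1 GATA6-AS TFR1 control region (-1.58). FOXI2, FOXL3 and FOXN2 completed the set, with 2, 2 and 1 captured regions with GATA6-AS TFR1. Of these 3, FOXL3 had 1 more with MEG3 TFR1 (0.79), and FOXN2 had 1 GATA6-AS TFR1 control region (-2.14).

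The near-identical copies are uncertain, since reads from 1 copy can align to another and how the authors treated such reads is not given in the sources used here. FOXD4L1, FOXD4L3, FOXD4L4, FOXD4L5 and FOXD4L6 had no region in any list within 5 kb. FOXD4 had 1, captured with GATA6-AS TFR1 (2.07). FOXO3B had 2 with MEG3 TFR1 (median 1.30), 0 with MEG3 TFR2 and 1 with GATA6-AS TFR1 (1.67). These 5 FOXD4L copies were the only FOX genes with no region that near, and the matching share of all genes is not given here.

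Some control regions recurred at the same place in the 3 control lists, which share the no-oligo libraries, so that recurrence counts once. In FOXN4, the region chr12:109296751-109297050 had log2 ratios of -1.32 with MEG3 TFR1, -1.09 with MEG3 TFR2 and -1.33 with GATA6-AS TFR1. In FOXP1, chr3:70959451-70959750 had -1.74, -1.25 and -2.01. FOXI3 had -1.47, -1.88 and -1.82. FOXO1 and FOXO3 also had a place that was in all 3 control lists. These are places with more signal in the no-oligo libraries whichever oligo they were set against.

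The partners of FOX factors in 2 pathways were counted the same way. Of 30 genes of FOXO and PI3K-AKT signalling, 23, 24 and 26 had a captured region inside or within 5 kb with MEG3 TFR1 and TFR2 and GATA6-AS TFR1, and 10, 13 and 22 a control region. At a gene end the captured counts were 6, 6 and 16. The highest there with GATA6-AS TFR1 were PPARGC1A, a coactivator with FOXO1 of glucose synthesis, at 2.71, SOD2, a FOXO target that clears superoxide, at 2.16, and the growth factor receptor IGF1R at 2.11. With MEG3 TFR2 the highest was PDPK1, the kinase that activates AKT, at 2.06, and with MEG3 TFR1 it was CDKN1B, a cell cycle inhibitor and FOXO target, at 1.53. Over all genes the captured shares were 74.0%, 70.7% and 79.4% by the 5 kb rule and 29.4%, 23.2% and 48.8% at an end, and the control shares by the 5 kb rule were 25.9%, 24.1% and 49.0%.

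Of 16 Hedgehog genes, which act upstream or downstream of FOXA2, FOXF1, FOXC2 and FOXL1, 15, 15 and 16 had a captured region inside or within 5 kb and 8, 6 and 12 a control region, where all genes had a captured one in 74.0%, 70.7% and 79.4% and a control one in 25.9%, 24.1% and 49.0%. At a gene end the captured counts were 9, 4 and 13, against 29.4%, 23.2% and 48.8% of all genes. The transcription factor GLI1 had the highest ratio there with GATA6-AS TFR1 (2.88), the ligand SHH with MEG3 TFR1 (2.12) and the co-receptor GAS1 with MEG3 TFR2 (2.35). No error is known for these counts.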

How the data were processed

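Per the labels' protocols, DNA bound to biotinylated RNA oligos, or recovered with no oligo, was released with RNases and sequenced, from 2 libraries a group. The genome build was hg38 and the tools included BWA 0.7.15-r1140 and FastQC, per the submitters' processing notes. How regions were called and libraries scaled is not given in the sources used here.

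In 6 deposited lists, each region has the authors' log2 ratio of oligo over no oligo, a position and gene names. Their scale was told from the values themselves: raised from log2, between 98.2% and 99.96% of the values in a list were fractions of whole numbers, to within 3e-10 and with denominators up to 400. What these numbers count is unknown, and so are depth and error. With 1 value per region, no replicate test could be run. The design's input was not analysed here.

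Regions were matched to the RefSeq table (GRCh38.p14) by name and by position, with at least 1 shared base and coordinates counted from 1. Called means present in the list, and percentages of all genes are over 19126 autosomal protein-coding genes. The table gives no exons, so exon or intron is not stated. Percent covered and regions per 10 kb are over the gene plus 5 kb on each side. Members, role groups and pathway lists were chosen with earlier results of these data known. For each oligo the rule named the 6 FOX genes with the highest captured ratio and the 6 with most captured regions. It also named those captured at a start site or in a control list, and those in no list. Of each pathway list it took up to 4 genes. Both rankings used regions by the authors' names, while the counts and ratios described per gene are by position. FOXE1, for example, ranked by 5 regions with MEG3 TFR1 by name and had 0 within 5 kb. Other FOX genes were described for completeness, except 1, which enters the counts but is not reported here. Python 3.11.15, pandas 2.3.3, numpy 2.4.6 and matplotlib 3.10.9 were used. Alternatives were a stricter log2 ratio, the upper part of each list, and other distances and overlaps.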

Additional observations from a re-analysis of the deposited data

How the results depend on the processing

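Of 72 alternative values of 21 results, 47 stayed close to the reported value and 25 did not. Close meant within 1.5-fold for a count and within 0.1 for a median log2 ratio, which is a wide limit. A fall from 42 to 30 FOX genes named as captured with GATA6-AS TFR1, at a log2 ratio of 1.5 or more, was still close by it. Counts and captured ratios are positive by construction, so none had a direction to change. Regions of log2 ratio 1.5 or more in size left 16 FOX genes named as captured with MEG3 TFR1 and 23 with MEG3 TFR2, and 30, 51 and 73 captured FOX-named regions with MEG3 TFR1 and TFR2 and GATA6-AS TFR1. The same limit left 7 and 8 genes named in the control lists of MEG3 TFR1 and MEG3 TFR2, with 10 and 8 regions, and 6, 4 and 14 genes captured at an end. The upper 50% of each list by size of ratio named 19 FOX genes as captured with MEG3 TFR1 and 23 with MEG3 TFR2, and 6, 8 and 16 in the control lists. These limits keep fewer regions by construction. By position within 5 kb in place of the authors' names, 9 FOX genes had a MEG3 TFR1 control region. The MEG3 TFR1 captured median was 1.33 over FOX-named regions and 1.44 by position, which was chosen for medians and region counts after seeing the data. With gene ends widened to 5 kb, 28 and 25 FOX genes were captured with MEG3 TFR1 and MEG3 TFR2. With 1 kb on each side of the start, 7, 4 and 17 genes were captured at a start, and where 0.5 of the region had to lie in the window, 1 was with GATA6-AS TFR1. No share of all genes is given for the stricter limits or the changed distances and overlaps. These FOX counts therefore do not show whether FOX genes differ from genes in general.

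No paired analysis was possible because each region has 1 deposited ratio and no library has a value of its own. For the same reason no fit without 1 library was made. Depth is unknown, so a FOX gene without a region is not shown to lack capture.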
